A study of Rattus norvegicus with 12 samples.

Results

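The core circadian clock genes were followed in rats made deaf in the right ear, in the inferior colliculus (IC), where auditory pathways converge in the midbrain. The 10 genes were chosen by name: Bmal1, Clock, Per1, Per2, Per3, Cry1, Cry2, Nr1d1, Nr1d2 and Dbp. Of these, 9 had a probe listed with exactly 1 gene symbol, each with a single such probe, among 18166 genes measured that way. Nr1d2 was not matched to such a probe and is not analysed here.

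The cellular clock is a feedback loop of transcription. BMAL1 and CLOCK form a dimer that binds E-box sequences and activates the Per and Cry genes, whose protein products return to block that dimer. The nuclear receptor REV-ERBα, encoded by Nr1d1, is itself an E-box target and represses Bmal1 through RORE sequences, so Bmal1 RNA and the RNA of E-box targets such as Nr1d1 and Dbp peak at opposite times of day in most tissues. Outside the suprachiasmatic nucleus, where the master clock lies, such oscillations occur in many brain regions, the auditory system included, and Per1 is also induced by glucocorticoids and by neuronal activity.

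The study compared 4 groups of 3 arrays, all from rats of the SD (Sprague-Dawley) strain and all taken 2 weeks after surgery. Left control and right control are the left and right IC of rats given a sham operation, in which the skin behind the ear was cut but the bulla was not opened. Left deaf and right deaf are the left and right IC of rats whose right cochlea was ablated. Because auditory input mostly crosses the midline, the left IC lies opposite the ablated ear. Per the series' design text there were 20 rats in each arm; whether 1 rat or a pool went onto each array is unstated, as is whether same-numbered left and right arrays share rats, so the spread behind each p-value is that between arrays and may be technical. Neither the age of the rats nor the time of day of tissue collection is given in the sources used here.

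Hippocampus is named in the series title and in the sample descriptions, and the descriptions of the deaf arrays name a noise group, whereas the sample titles, source names and design text name IC and single-sided deafness, which were followed. Of 15 listed IC and dorsal midbrain markers all 15 were measured, and 10 had a mean above that of the median gene, 5.97; the brightest were Tcf7l2 at 10.3 and Tfap2d, a transcription factor gene of the IC, at 9.60, while Pou4f1 at 5.22 was the dimmest. Of 15 listed hippocampus and forebrain markers 13 were measured, 5 of them above the median gene and 4 below the lower quartile of all values, 3.78. Among these 13, Neurod6 was at 3.40 and Spink8 at 3.55, but Nrgn was at 11.3 and Zbtb20 at 8.51. The array values ran from 1.33 to 13.1, and correlations between arrays were 0.982 to 0.993. Several marker lists had their highest group mean in right control. For cerebellar markers the mean log2 level of the 14 measured members was 6.01, 5.79 and 6.35 on right controls 1, 2 and 3, against 5.60 to 5.70 on left controls, 5.61 to 5.71 on left deaf and 5.59 to 5.63 on right deaf arrays. The granule cell gene Gabra6 spanned 2.51 to 5.30 over the arrays. For 7 oligodendrocyte markers the mean was 10.31, 10.22 and 10.18 on right controls 1, 2 and 3, against 9.965 to 10.15 on the other 9 arrays. For the 13 forebrain markers it was 5.83, 5.89 and 5.99 on right controls, against 5.73 to 5.86 on the other 9. Over all arrays the Pearson r of Per2 was -0.84 with the cerebellar, -0.74 with the forebrain and -0.65 with the oligodendrocyte mean. For Per1 these were -0.57, -0.61 and -0.46. With the cerebellar mean the other clock genes ran from -0.33 (Cry2) to 0.34 (Cry1). The part of these lists in the results below was not tested. Values without right control 3 are given where they matter. Right controls 1 and 2 also had raised cerebellar markers, so leaving out right control 3 does not remove this group difference. Tissue was measured in bulk, so fewer cells of a type and less RNA per cell cannot be told apart.

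RefSeq promoter windows of the GRCr8 build, 250 bases before to 50 after a transcript's start, were found for 9 of the 10 genes by symbol; none was matched for Cry1. The sites below are shown because they are the letters through which the loop's members are known to act on each other. Capitals mark the match, each sequence is on the gene's strand, and the windows of Nr1d1 and Clock are given for 2 starts each.
Nr1d1, E-box, chr10:84229628-84229657, minus strand: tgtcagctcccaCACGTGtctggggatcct
Per2, E-prime-box, chr9:99497038-99497067, minus strand: aacgcgcgcggtCACGTTttccactatgtg
Per2, D-box, chr9:99497167-99497196, minus strand: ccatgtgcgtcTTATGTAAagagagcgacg
Bmal1, RORE, chr1:176766298-176766327, plus strand: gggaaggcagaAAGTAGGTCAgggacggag
The Nr1d1 E-box belongs to the inner start, which lies 2358 bases inside the gene. The starts used for Per2 and Bmal1 lie 76 and 106 bases inside their genes. The Per2 E-prime-box and the Bmal1 RORE therefore also lie within the genes' RefSeq spans, whereas the Per2 D-box lies before the gene. The region before the outer start of Nr1d1, whose only match is an E-prime-box read on the opposite strand, is chr10:84231813-84232062 on the minus strand.
Nr1d1, outer start: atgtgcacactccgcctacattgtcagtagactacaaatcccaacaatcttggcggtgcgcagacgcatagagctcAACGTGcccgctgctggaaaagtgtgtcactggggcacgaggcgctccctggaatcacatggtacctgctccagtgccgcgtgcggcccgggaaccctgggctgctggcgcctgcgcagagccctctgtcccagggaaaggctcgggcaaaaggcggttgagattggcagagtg

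Both strands were searched. The E-box CACGTG occurred in 6.42% of all 33469 promoter windows, the E-prime-box CACGTT in 4.83%, the D-box (TTATGTAA or TTACGTAA), bound by DBP and its relatives, in 1.01%, and the RORE (A, any 2 bases, T, then AGGTCA or GGGTCA) in 1.63%. The cyclic AMP element TGACGTCA occurred in 1.83% and the palindromic glucocorticoid element (AGAACA and TGTTCT with 3 bases between) in 0.0149%, and no window of the 9 genes held either of these. The window of Cry2 also held an E-prime-box. The windows of Per1, Per3, Clock, Nr1d2 and Dbp held none of these letters, which says nothing of sites elsewhere in the genes; the window of Per1 lies around a start 5374 bases inside that gene.

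In the right IC, which is ipsilateral to the ablation, Per1 and Per2 had higher values in deaf than in control arrays, and the other 7 genes had differences whose 95% intervals included 0. No clock gene passed the limma test adjusted over all 18166 genes in any of the 6 contrasts, and neither did any other gene (0% called). In the right contrast 783 genes (4.31%) had an unadjusted p under 0.05, of which 385 (2.12% of all genes) were higher in deaf arrays. Of the 9 clock genes 2 were among these 385, and none was among those lower. A higher mean in deaf arrays was found for 7 of the 9, against 50.5% of all genes. The median difference of the 9 genes was 0.065, against 0.0014 for all genes.

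Per1 encodes a repressor of the loop whose gene also responds quickly to light and steroid signals. On the log2 intensity scale Per1 was at 6.89, 6.80 and 6.78 on right controls 1 to 3 and at 7.21, 7.17 and 7.23 on right deaf 1 to 3. The 3 right deaf arrays lay above all 3 right controls and close together. The difference was 0.38 (SE 0.12, 95% interval 0.12 to 0.63), rank 113 of 18166 genes by p, and did not pass over all genes (limma, adjusted p = 1.00). Groups on the right did not overlap for 7.48% of all genes (3.64% with deaf arrays higher), and Per1 was the only 1 of the 9 core clock genes among them.

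Per2 encodes another repressor of the same family. It was at 6.15, 6.33 and 5.88 on right controls 1 to 3, and at 6.53, 6.57 and 6.31 on right deaf 1 to 3. Right control 3 was the lowest of all 12 arrays, and right deaf 3 lay just below right control 2, so the groups overlapped. The difference was 0.35 (SE 0.12, 95% interval 0.090 to 0.61; rank 177 of 18166 by p; limma, adjusted p = 1.00). Without right control 3, the array with the highest cerebellar marker level, the difference of Per2 was 0.23, no longer at an unadjusted p under 0.05, and that of Per1 was 0.36, which still was. The mean log2 level of 11 immediate early genes, which neuronal activity induces, was 6.10, 6.04 and 6.09 on right controls 1 to 3 and 6.42, 6.25 and 6.15 on right deaf 1 to 3, so these groups did not overlap either. On the left it was 6.12, 6.02 and 6.12 on controls and 6.21, 5.99 and 5.91 on deaf arrays. For 13 glucocorticoid-responsive genes other than Per1 the mean was 7.27, 7.16 and 7.04 on right controls and 7.43, 7.35 and 7.31 on right deaf arrays. These groups did not overlap either. Dusp1 is a member of both lists. The cerebellar and oligodendrocyte means also separated on the right, with controls higher. They were 5.79 to 6.35 on right controls against 5.59 to 5.63 on right deaf arrays, and 10.18 to 10.31 against 10.04 to 10.15. The remaining marker lists overlapped between these groups. How often gene lists beyond these separate in this way was not computed. The part of any of these lists in the Per1 and Per2 values was not tested.

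The right control group stood lowest for both genes. Mean Per1 was 6.83 ± 0.060 (SD, n = 3) for right control, and above it came 7.04 ± 0.26 for left control, 7.13 ± 0.12 for left deaf and 7.20 ± 0.029 for right deaf. Left control had the widest spread, because left control 3 was at 7.34, the highest of all 12 arrays, while left controls 1 and 2 were at 6.92 and 6.87. Mean Per2 kept this order, with 6.12 ± 0.23 for right control, 6.35 ± 0.068 for left control, 6.42 ± 0.12 for left deaf and 6.47 ± 0.14 for right deaf. For either gene, neighbours in this order among the 3 upper groups differed by less than the larger SD of the pair.

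**Figure D1:**
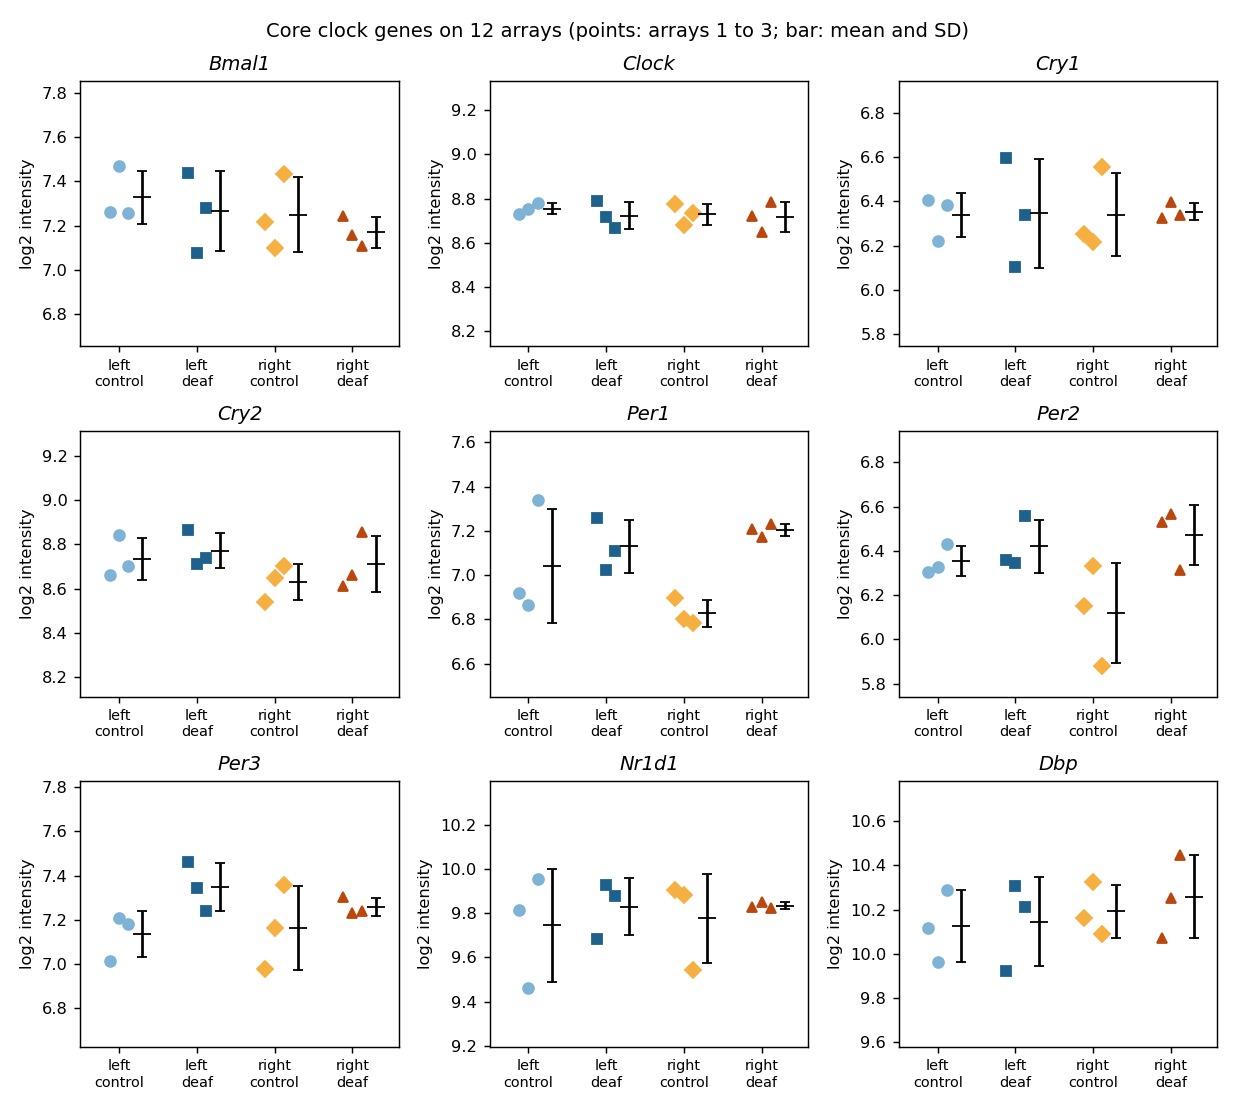
Log2 intensity (vertical axis, each panel spanning the same width) of the 9 measured clock genes in left control, left deaf, right control and right deaf arrays; points are arrays 1 to 3 and bars give the mean and SD (n = 3). The 3 right deaf values of Per1, 7.17 to 7.23, lie above the 3 right control values, 6.78 to 6.89, while left control 3 reaches 7.34.

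In the left IC, contralateral to the ablation, Per3 was the clock gene with the largest difference between deaf and control arrays, and Per1 and Per2 differed by less than their spread. Per3, a family member with a weaker role in the loop, was at 7.01, 7.21 and 7.18 on left controls 1 to 3 and at 7.46, 7.35 and 7.24 on left deaf 1 to 3. The groups did not overlap, as in 10.3% of all genes on this side (4.61% with deaf arrays higher). The difference was 0.21 (SE 0.10, 95% interval -0.015 to 0.44; limma, adjusted p = 1.00), and that of Per3 on the right was 0.092 (SE 0.10). On the left Per1 differed by 0.089 (SE 0.12) and Per2 by 0.067 (SE 0.12). The value of Per1 depended on single controls: it was 0.24 without left control 3, at an unadjusted p under 0.05, and 0.0013 without left control 2. Of the 9 genes 0 had an unadjusted limma p under 0.05 on the left, where 670 of all genes (3.69%) did. A higher mean in deaf arrays was again found for 7 of the 9, against 48.2% of all genes. The median difference of the 9 genes on the left was 0.038, against -0.0051 for all genes.

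Whether deafness changed the Per genes differently on the 2 sides was tested as an interaction, left difference minus right difference. It was -0.29 for Per1 (SE 0.17, 95% interval -0.65 to 0.074), -0.28 for Per2 (SE 0.17, -0.65 to 0.084) and 0.12 for Per3 (SE 0.15, -0.20 to 0.44). All 3 intervals include 0, and 0 of the 9 genes had an unadjusted limma p under 0.05, against 3.42% of all genes. The data thus gave no call of a side difference, and the intervals also leave room for differences as large as those seen on the right. Without left control 3 the interaction of Per1 was -0.14, and without left control 2 it was -0.38, at an unadjusted p under 0.05. That of Per2 was -0.39 without right control 2, also at an unadjusted p under 0.05. Without right control 3 that of Per2 was -0.16, and that of Per3 was 0.026.

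Averaged over both sides, Per1 was higher in deaf arrays by 0.23 (SE 0.083, 95% interval 0.052 to 0.41), Per2 by 0.21 (SE 0.084, 0.025 to 0.39) and Per3 by 0.15 (SE 0.074, -0.0089 to 0.31). None passed over all genes (limma, adjusted p = 0.998 each). Of the 9 genes 2, Per1 and Per2, had an unadjusted p under 0.05, against 4.53% of all genes in either direction and 2.01% with deaf arrays higher. For none of the 9 did all 6 deaf arrays lie beyond all 6 controls (0.270% of all genes). On the left the mean log2 level of the 13 glucocorticoid-responsive genes was 7.24, 7.10 and 7.20 on left controls and 7.32, 7.30 and 7.29 on left deaf arrays. With the right values above, all 6 deaf arrays lay above all 6 controls for this list. Its part in the Per values was not tested.

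The Bmal1 and Clock genes, the activators of the loop, had slightly lower means in deaf arrays on both sides, each with a 95% interval that included 0. Bmal1 was at 7.26, 7.47 and 7.26 on left controls, 7.44, 7.08 and 7.28 on left deaf, 7.21, 7.10 and 7.44 on right controls, and 7.24, 7.16 and 7.11 on right deaf arrays. The ranges of deaf and control arrays overlapped on each side, while all right deaf arrays lay below all left controls. The difference of Bmal1 was -0.063 on the left (SE 0.12, 95% interval -0.31 to 0.19) and -0.080 on the right (SE 0.12, -0.33 to 0.17). Clock had the steadiest level of the 9 genes, from 8.65 to 8.79 over all 12 arrays. Its difference was -0.031 on the left (SE 0.073, 95% interval -0.19 to 0.13) and -0.011 on the right (SE 0.073, -0.17 to 0.15).

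Cry1 and Cry2 encode the cryptochromes, the partners of the PER proteins in repression. Mean Cry1 lay between 6.34 and 6.35 in all 4 groups, although single arrays ran from 6.10 (left deaf 2) to 6.59 (left deaf 1). Its difference was 0.0074 on the left (SE 0.13) and 0.013 on the right (SE 0.13). Cry2 ran from 8.54 on right control 1 to 8.86 on left deaf 1, and its difference was 0.038 on the left (SE 0.092) and 0.080 on the right (SE 0.092). Neither gene differed between arms by more than the spread of its arrays.

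Nr1d1 and Dbp stand for the output of the E-box: the first encodes the repressor of Bmal1, and the second a D-box activator that carries the rhythm to other genes. Nr1d1 was at 9.82, 9.46 and 9.96 on left controls, 9.68, 9.93 and 9.88 on left deaf, 9.90, 9.88 and 9.54 on right controls, and 9.83, 9.85 and 9.82 on right deaf arrays. Its difference was 0.084 on the left (SE 0.13, 95% interval -0.21 to 0.38) and 0.057 on the right (SE 0.13, -0.24 to 0.35). Right deaf arrays were the tightest group (SD 0.014), while both control groups held 1 array well below the others. Dbp, from 9.92 on left deaf 1 to 10.4 on right deaf 3, differed by 0.022 on the left (SE 0.13, 95% interval -0.26 to 0.31) and by 0.065 on the right (SE 0.13, -0.22 to 0.35).

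**Figure D2:**
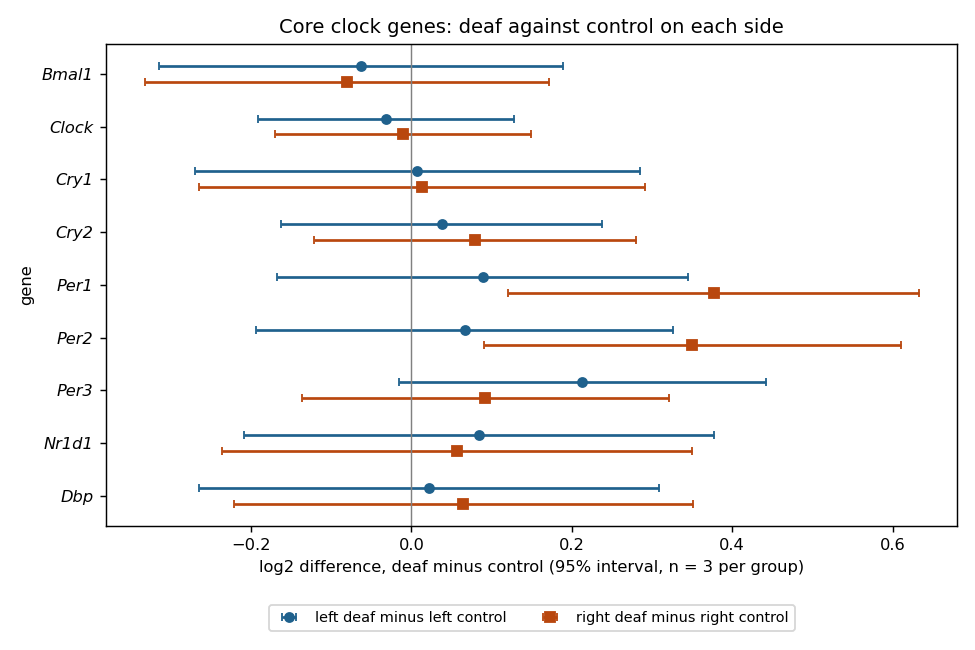
Difference of deaf minus control means (horizontal axis, log2 scale) for each clock gene on the left (circles) and on the right (squares), with 95% intervals from the limma fit (n = 3 arrays per group). Only the right-side intervals of Per1 (0.12 to 0.63) and Per2 (0.090 to 0.61) lie above 0, and no gene passed over all genes.

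Between the sides of control rats, Per1 was higher on the left by 0.21 (SE 0.12, 95% interval -0.041 to 0.47) and Per2 by 0.23 (SE 0.12, -0.025 to 0.49), and the other 7 clock genes had left minus right differences from -0.068 (Dbp) to 0.10 (Cry2). None of the 9 had an unadjusted limma p under 0.05 (4.95% of all genes did), and the adjusted limma p-values were 0.934 or higher. Single controls moved these values both ways. Per1 was at 0.067 without left control 3 and at 0.30 without left control 2, and Per2 at 0.11 without right control 3 and at 0.34 without right control 2; the larger value of each had an unadjusted p under 0.05. Between the sides of deaf rats the 9 differences ran from -0.11 (Dbp) to 0.096 (Bmal1), with 0 at an unadjusted p under 0.05 (3.34% of all genes). These side contrasts share arrays with the deaf against control contrasts, so the low right control values of Per1 and Per2 enter both.

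Phase itself could not be measured, because the arrays form no time series and the time of day of collection is not given. What could be read is how the 9 genes varied together over the 12 arrays, in 36 pairs. The most negative pairs were Bmal1 with Dbp, at a Pearson r of -0.86, and Bmal1 with Nr1d1, at -0.81. The Per and Cry genes, also targets of the dimer, were not opposed to Bmal1 in this way. Their r with Bmal1 was -0.13 for Per1, -0.31 for Per2, 0.28 for Per3, 0.58 for Cry1 and 0.37 for Cry2. On the positive side the highest were Nr1d1 with Dbp (r = 0.67), Per1 with Per2 (0.64) and Cry1 with Bmal1 (0.58). The signs were positive in 22 of the 36 pairs, and the median r was 0.16. Permutation of the arrays, adjusted over the 36 pairs by Benjamini-Hochberg, passed Bmal1 with Dbp (permutation p = 3e-04, adjusted 0.0108) and Bmal1 with Nr1d1 (0.00178, adjusted 0.0320), and no other pair.

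**Figure D3:**
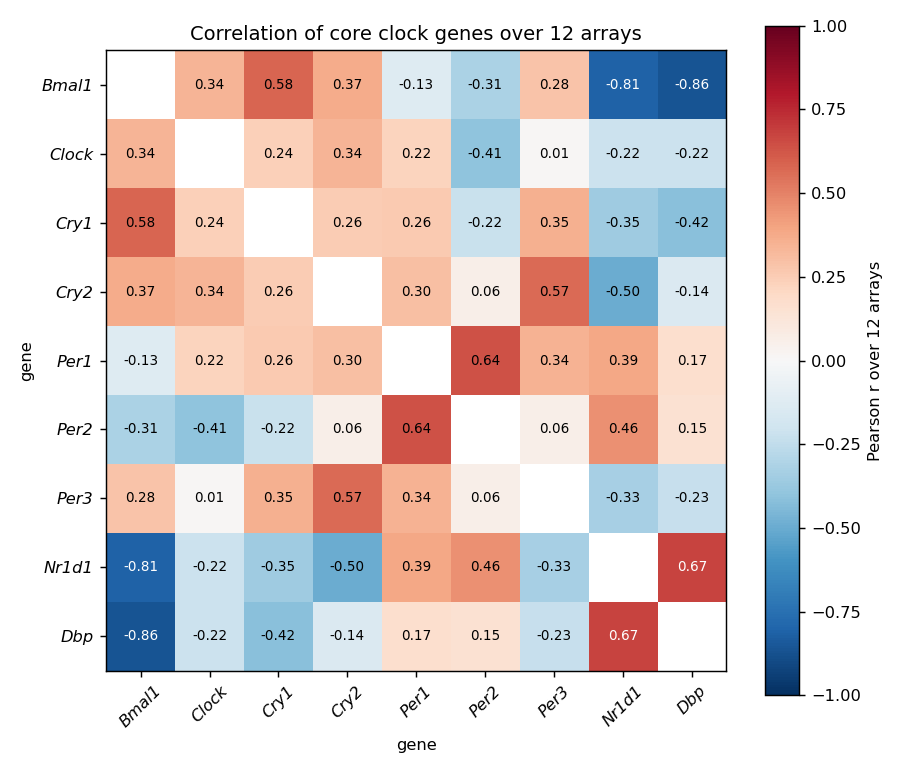
Pearson r over the 12 arrays for each of the 36 pairs of clock genes (both axes list the genes; colour from -1 to 1). The most negative cells are Bmal1 with Dbp, -0.86, and Bmal1 with Nr1d1, -0.81, and the most positive is Nr1d1 with Dbp, 0.67.

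Bmal1 and Dbp were opposed within each arm as well. Their r was -0.86 in the 6 control arrays and -0.90 in the 6 deaf arrays, and over deviations from the 4 group means it was -0.85 (exact permutation within groups, p = 0.00231, adjusted 0.0833). Spearman's rho was -0.83 (permutation p = 0.00172, adjusted 0.0619). Without left control 2 and left deaf 1, the 2 arrays farthest from the median of Bmal1, r was -0.74 (permutation p = 0.0137). Only the Pearson test over all 12 arrays thus passed after adjustment, while the sign was negative in each of these.

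The relation of Bmal1 to Nr1d1 rested on fewer arrays. The 12 arrays fall into 9 with Bmal1 at or below 7.28 and 3 at or above 7.44, namely left control 2, left deaf 1 and right control 3, and those 3 also held the lowest Nr1d1 values, 9.46 to 9.68 against 9.82 to 9.96. Within the 9 arrays r was -0.045 for Nr1d1 (rho -0.23) and -0.71 for Dbp (rho -0.67), so that for Nr1d1 the pooled r came from the step between the 2 sets of arrays. The rho of Bmal1 with Nr1d1 over all 12 arrays was -0.67 (permutation p = 0.0204, adjusted 0.300), and r was -0.67 without left control 2 and left deaf 1 (permutation p = 0.0452). Each of the 3 arrays belongs to a different group, and none is a right deaf array.

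**Figure D4:**
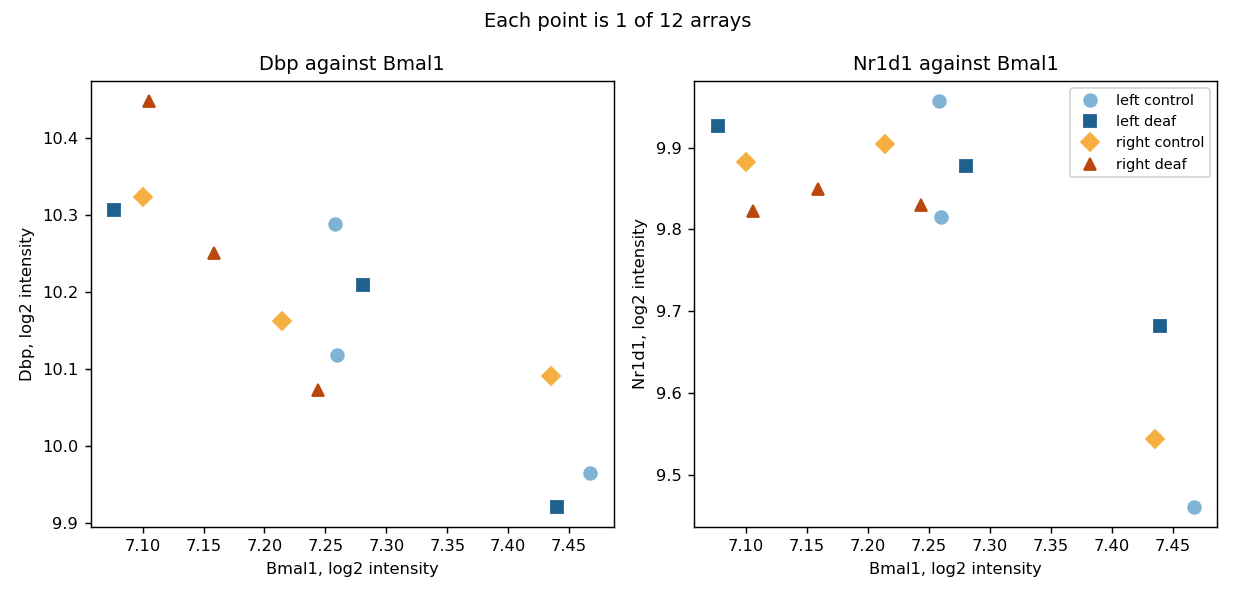
Dbp (left panel) and Nr1d1 (right panel) against Bmal1, all in log2 intensity; each point is 1 of the 12 arrays and the symbols give the group. Dbp falls along the whole range of Bmal1, whereas Nr1d1 is between 9.82 and 9.96 on 9 arrays and lower, 9.46 to 9.68, on the 3 arrays with the highest Bmal1.

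Other genes varied along the same lines. Among the 9082 other genes compared (those above the median level and the clock genes), 18 (0.198%) had an r with Bmal1 at least as far from 0 as that of Dbp, and 93 (1.02%) at least as far as that of Nr1d1. Counted the other way, 43 genes (0.47%) had an r with Dbp at least as far from 0 as that of Bmal1. For Nr1d1 this count was 107 (1.18%). The genes most like Bmal1 over the 12 arrays were Ddx5 (r = 0.92), Zc3h13 (0.91) and Aasdh (0.90), those most like Dbp were Ppp2r1a (0.96), Plppr2 (0.94) and Cacng3 (0.94), and those most like Nr1d1 were Ly6e (0.96), Tgfb1 (0.95) and Arid1a (0.95). No clock gene was among them: Nr1d1 stood at rank 431 of 9082 for Dbp, and Dbp at rank 371 for Nr1d1. The third principal component of the arrays, computed without the clock genes and holding 10.7% of the variance, had an r of -0.84 with Bmal1, 0.74 with Dbp and 0.62 with Nr1d1. With that component removed, the r of Bmal1 was -0.66 with Dbp and -0.67 with Nr1d1, and with components 1 to 3 removed it was -0.21 and -0.53. What this component reflects was not tested. Marker list means also varied along with these genes. With the mean of 6 neuron markers r was -0.64 for Bmal1, 0.77 for Nr1d1 and 0.46 for Dbp. With the mean of 8 choroid plexus markers, of which 1 was above the median gene, r was -0.66, 0.53 and 0.43. Over all marker lists used, r with Bmal1 ran from -0.66 to 0.31 (cerebellum). The part of these lists in the correlations was not tested.

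Per1 and Per2 had a positive correlation over all arrays, which differed in size and sign between subsets of arrays. Their r of 0.64 over the 12 arrays (permutation p = 0.0165, adjusted 0.148; rho 0.59, permutation p = 0.0441) was 0.57 in the 6 control arrays, -0.096 in the 6 deaf arrays and 0.17 over deviations from the group means. Per2 stood at rank 131 of 9082 in likeness to Per1, and Per1 at rank 432 in likeness to Per2. The genes most like Per1 were Crtac1 (r = 0.87), Slc16a13 (0.86) and Fkbp1a (0.82), and those most like Per2 were Rasgef1a (0.91), Trmt1l (0.89) and Dgki (0.87). Per1 showed no such opposition to Bmal1 as Dbp did (r = -0.13).

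The wider clock network was read from a list of 26 further genes, of which 19 were measured. None passed over all genes in any contrast. In the left contrast 2 of the 19 had an unadjusted limma p under 0.05, both higher in deaf arrays (1.70% of all genes were higher at that p): Csnk1d, a kinase gene whose product marks PER proteins for degradation, by 0.21 (SE 0.084, 95% interval 0.023 to 0.39), and Tef, a D-box factor gene related to Dbp, by 0.19 (SE 0.085, 0.0061 to 0.38). Tef was at 7.56, 7.52 and 7.56 on left controls and at 7.70, 7.83 and 7.68 on left deaf arrays, and Csnk1d at 7.62, 7.74 and 7.69 against 7.96, 7.94 and 7.76. All 3 left deaf arrays of each gene lay above all 3 left controls, as they did for 4 of the 19 genes, against 4.61% of all genes. The other two were Usp2, by 0.16 (SE 0.089), and Btrc, by 0.12 (SE 0.069), while Nampt had all 3 left deaf arrays below the controls (-0.097, SE 0.11); these 3 were named after their values were seen.

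On the right, Tef and Csnk1d differed by 0.12 (SE 0.085) and 0.11 (SE 0.084). None of the 19 had an unadjusted p under 0.05 there, against 4.31% of all genes, the smallest being those of Timeless (-0.27, SE 0.16) and of the kinase gene Gsk3b (-0.11, SE 0.076). Groups on the right did not overlap for 1 of the 19 with deaf arrays higher, Bhlhe40 (0.079, SE 0.091), and for 1 with deaf arrays lower, Timeless. Over all genes they did not overlap for 7.48%. Bhlhe40 was named for this contrast after its values were seen. As the mean of both sides, Csnk1d was 0.16 higher (SE 0.060) and Tef 0.16 higher (SE 0.060), and these were the only 2 of the 19 at an unadjusted p under 0.05, against 4.53% of all genes (2.01% with deaf arrays higher). The median difference of the 19 was 0.056 on the left and 0.0080 on the right. Between the sides, Usp2 (-0.16, SE 0.089) and Npas2 (0.14, SE 0.078) had the smallest p in control rats, left minus right, and Tef (0.17, SE 0.085) and Bhlhe40 (-0.14, SE 0.091) in deaf rats. For the interaction they were Bhlhe40 (-0.25, SE 0.13) and Npas2 (-0.15, SE 0.11). None of these had an unadjusted limma p under 0.05.

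**Figure D5:**
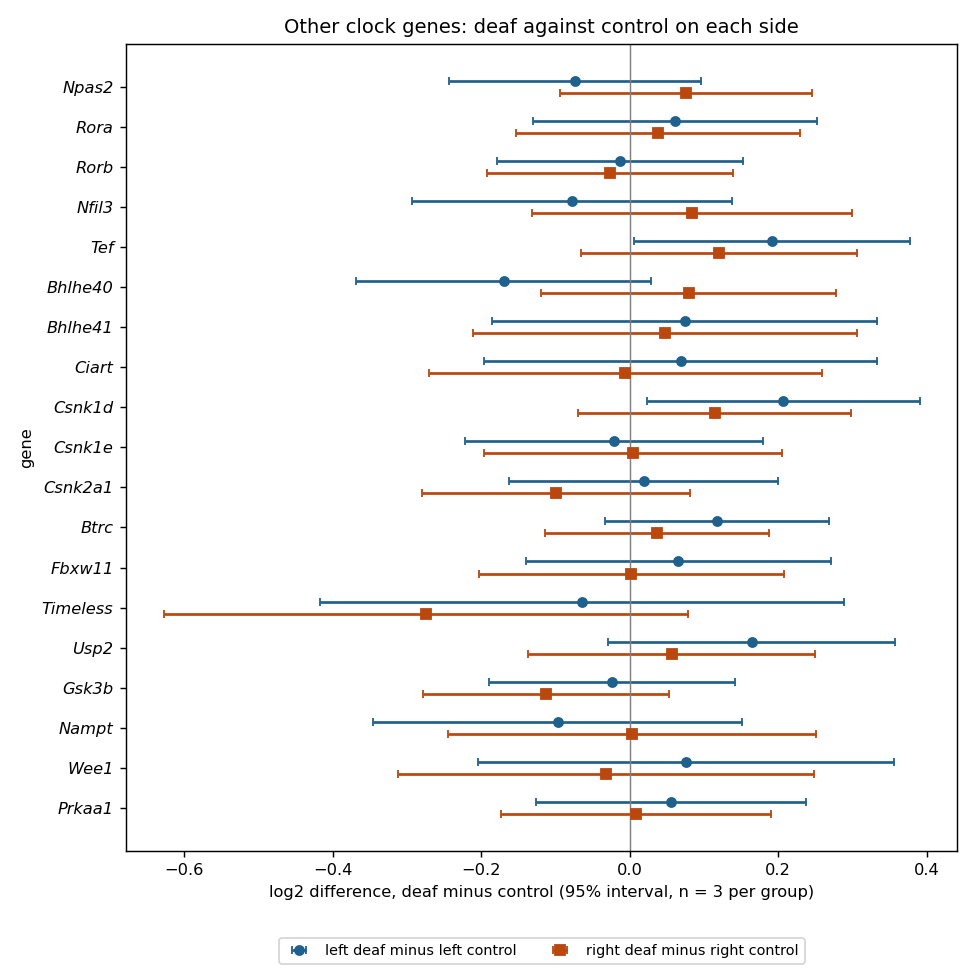
Difference of deaf minus control means (horizontal axis, log2 scale) for the 19 other clock genes measured, on the left (circles) and on the right (squares), with 95% intervals from the limma fit (n = 3 arrays per group). Only the left-side intervals of Tef and Csnk1d lie above 0.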

How the data were processed

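Total RNA was extracted with Trizol, and single-stranded cDNA was fragmented and given a biotin label with Affymetrix reagents, per the labels' protocols; each array has 1 colour. The deposited table holds log2 intensities that the authors had already brought to a common distribution, with a median of 5.34 and no more than 0.0995 between arrays at equal rank. The log base was read from this range. Neither the array model nor the software is given in the sources used here. The 29489 probes comprise 18511 that name 1 gene symbol, 575 that name several and 10403 that name none; for the 291 genes with several probes the brightest was kept (18166 genes). No gene was filtered out. A total of 18058 genes matched a RefSeq entry by Entrez identifier, and 0 symbols differed. Detection calls were not used here, so differences are given as measured. The number of arrays limits the precision.

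A linear model with 4 group means was fitted to all genes with limma 3.58.1 in R 4.3.3, giving 6 contrasts with a shared spread (8 residual and 3.79 prior degrees of freedom); tests were two-sided, adjusted by Benjamini-Hochberg over all genes, threshold 0.05. With 3 arrays against 3 an exact permutation test cannot go below 0.1. In simulated data with 18166 genes the left contrast called 57 of 100 genes changed 1.5-fold and 81 of 100 changed 2-fold, with 6 false calls. Both sets were planted together, with noise independent between genes. The largest clock gene difference, that of Per1 on the right, was 1.30-fold, smaller than any change simulated, so these rates do not cover it. Correlations used 100000 permutations (1296, all of them, within groups). All 10 genes were named, with up to 6 of the other clock genes per contrast at an unadjusted p under 0.05 or else the 2 of smallest p, and the 3 genes above the median level most like each of Per1, Per2, Dbp, Nr1d1 and Bmal1, predicted genes skipped. The genes and lists were chosen with earlier results of these data known. Same-numbered left and right arrays of an arm had correlations of -0.056 to 0.15 in their deviations from group means, above 0.1 in 2 of 6 pairs, so the numbers were not taken to pair arrays.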

Additional observations from a re-analysis of the deposited data

How the results depend on the processing

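None of the 26 differences of single clock genes followed passed the adjusted threshold in any of 540 refits (smallest adjusted p 0.556), and 518 kept their sign. Many of these refits can change only the SE and p of a difference, so its sign could not turn in them. They are the mean of probes (1 probe per clock gene), the variance trend, genes above the median level, only the groups compared and the replicate blocks. Leaving out an array of a group outside the contrast is another. The differences of Per1 and Per2 on the right stayed above 0 in every refit, from 0.36 to 0.41 and from 0.23 to 0.46 with 1 array left out. Signs turned in genes near 0. With array weights Cry1 on the left was at -0.039, and on the right Clock was at 0.0042 and Dbp at -0.0040. With 1 array left out, the left differences ran from 0.0013 to 0.24 (Per1), -0.0020 to 0.11 (Per2), -0.12 to 0.13 (Cry1), -0.0084 to 0.091 (Cry2), -0.15 to 0.032 (Bmal1), -0.057 to 0.19 (Nr1d1) and -0.059 to 0.13 (Dbp), and the right differences from -0.0021 to 0.19 (Per3), -0.050 to 0.12 (Cry1), -0.16 to 0.012 (Bmal1), -0.044 to 0.024 (Clock), -0.059 to 0.12 (Nr1d1) and -0.031 to 0.16 (Dbp).

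The count of the 9 genes at an unadjusted p under 0.05 on the left was 1 in place of 0 among genes above the median level, with a variance trend and with array weights (Per3 in each), and ran from 0 to 1 with 1 array left out. For the mean of both sides it was 3 in place of 2 in the same alternatives, again with Per3. With 1 array left out it ran from 1 to 2 on the right and for the mean of both sides, from 0 to 1 for the sides of control rats and from 0 to 1 for the interaction. Genes called over all genes were 1 in place of 0 on the left among genes above the median level and with a variance trend (Vgf), from 0 to 1 with 1 array left out there (Vgf) and for the mean of both sides (Clec2d2), and for left minus right in deaf rats 1 among genes above the median level (Vgf) and 2 with a variance trend (Vgf and Or52a5b). At an adjusted p of 0.1 the interaction had 1 (Mirlet7f2). With the replicate block (number as a fixed term) 1 gene, RGD1565183, was called between the sides of control rats and 1 for the interaction; as a random block within arms (correlation 0.036) 0 were called, and the paired fits changed no call of a clock gene. These names were chosen after their values were seen; the cause was not tested.

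Of the 36 pairs, 2 passed over all arrays and 1 after quantile normalization (Bmal1 with Dbp). None, 0, passed with Spearman's rho, deviations from group means, within the 6 control arrays, within the 6 deaf arrays, or without the 2 arrays farthest from the median. The last 3 of these hold fewer arrays. With the mean of probes 2 passed, but each clock gene has 1 probe, so this count could not differ. Per1 with Per2 turned to -0.096 in the 6 deaf arrays. Removal of components was added after the data were seen.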
